A study of Mus musculus with 32 samples.

Results

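The genes described here are the 10 mouse genes that make, load and regulate major histocompatibility complex (MHC) class II molecules: H2-Aa, H2-Ab1, H2-Eb1, Cd74, H2-DMa, H2-DMb1, H2-DMb2, H2-Oa, H2-Ob and Ciita. They were taken by name, with earlier results of these data known. Each was found under its symbol among the 41388 genes listed per library, and all 10 passed the filter on low counts in both cohorts. RNA was sequenced from sorted bone marrow cells of C57BL/6 mice. The sort for haematopoietic stem cells (HSC) was Lin-, cKit+, Sca1+, CD48- and CD150+, and that for multipotent progenitors (MPP) differed by being CD150-. Mice aged 8 weeks gave the 12 libraries of the Vav cohort (4 groups, 3 libraries each). Its control mice are labelled wild-type and its mutant mice Jarid2-KO, and both groups carry the label Vav-CRE, a recombinase driven by a promoter active throughout the blood system. Mice aged 10 weeks gave the 12 libraries of the Mx1 cohort (6 groups, 2 libraries each), 2 months after pIpC, the agent that switches on the Mx1-CRE named in every label. Its groups were wild-type control, Jak2V617F, and Jak2V617F with Jarid2KO (called double mutant here), each as HSC and as MPP. Jarid2 encodes a partner protein of Polycomb repressive complex 2, which silences genes through histone methylation, and Jak2V617F is an activated kinase found in myeloproliferative disease.

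Class II molecules are heterodimers that show peptides from the endosome to CD4+ T cells. H2-Aa and H2-Ab1 encode the alpha and beta chains of the I-A molecule, and H2-Eb1 encodes the beta chain of I-E, a molecule that C57BL/6 mice do not assemble because their alpha chain gene is inactive. Cd74 encodes the invariant chain, which holds the peptide groove closed until H2-M (H2-DMa with H2-DMb1 or H2-DMb2) exchanges its fragment for a peptide, and H2-O (H2-Oa with H2-Ob) restrains H2-M. Ciita is the transactivator that switches the pathway on through the X and Y boxes ahead of these genes, where the RFX, CREB and NF-Y factors bind. B cells, dendritic cells and activated macrophages are its best known users, and mouse stem and progenitor cells also show class II on their surface.

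In the mm10 coordinates of the deposited tables, 8 of the 10 genes lie on chromosome 17 between 34092340 and 34316199, a span of 223.9 kb. In order these are H2-Oa (34092340 to 34095234), H2-DMa (34135182 to 34139101), H2-DMb2 (34143307 to 34151553), H2-DMb1 (34153072 to 34160230), H2-Ob (34238903 to 34245907), H2-Ab1 (34263209 to 34269418), H2-Aa (34282744 to 34287827, minus strand) and H2-Eb1 (34305877 to 34316199). All but H2-Aa are on the plus strand. Ciita lies on chromosome 16 (10488178 to 10527564). The tables give exons and no strand setting for the counting. Reads shared with a gene on the other strand, Dexi for Ciita and BC051537 for H2-Oa, could therefore not be told apart, and this also holds for reads shared by the near-identical H2-DMb1 and H2-DMb2.

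RefSeq promoter windows (build GRCm38.p6, from 250 bases before to 50 after the start) were matched by symbol and used for 7 of the genes, in 8 windows, and not for Cd74, H2-Ab1 and Ciita. The letters searched on both strands were ATTGG for the Y box core, AGCAAC for the X1 box core and TGACG for the X2 box core, and cores of different kinds do not overlap each other in the windows shown. The 5 sequences below, from 110 bases before to 50 after the start, 5′ to 3′ on the gene's strand, are shown because each holds a Y box core at most 61 bases before the start, 3 of them with an X1 core and 1 with an X2 core ahead of it. Capitals mark the cores.
H2-Aa (chr17:34287774-34287933, minus strand): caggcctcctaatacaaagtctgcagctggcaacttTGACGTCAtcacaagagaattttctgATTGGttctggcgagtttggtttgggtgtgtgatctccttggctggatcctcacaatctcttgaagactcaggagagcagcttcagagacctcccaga
H2-Eb1 (chr17:34305757-34305916, plus strand): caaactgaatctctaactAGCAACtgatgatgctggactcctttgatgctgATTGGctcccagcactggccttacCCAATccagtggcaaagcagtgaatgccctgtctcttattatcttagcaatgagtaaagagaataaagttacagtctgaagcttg
H2-Ob (chr17:34238795-34238954, plus strand): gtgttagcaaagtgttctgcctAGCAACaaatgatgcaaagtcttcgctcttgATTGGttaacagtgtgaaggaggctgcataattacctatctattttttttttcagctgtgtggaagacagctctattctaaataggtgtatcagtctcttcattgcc
H2-Oa (chr17:34092269-34092428, plus strand): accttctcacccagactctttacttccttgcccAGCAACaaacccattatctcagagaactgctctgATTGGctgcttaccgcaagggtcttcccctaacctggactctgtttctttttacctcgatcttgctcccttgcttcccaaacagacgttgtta
H2-DMb1 (chr17:34153081-34153240, plus strand): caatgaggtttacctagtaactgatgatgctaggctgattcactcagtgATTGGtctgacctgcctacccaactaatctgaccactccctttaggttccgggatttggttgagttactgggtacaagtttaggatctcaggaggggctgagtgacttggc
The Y box core was present in 7 of the 8 windows, against 37.4% of all 32851 windows. In 6 windows it stood on the gene's own strand between 43 and 90 bases before the start, the range being set from these genes, and 6.5% of all windows hold it there. The X1 core stood before it in H2-Eb1, H2-Ob and H2-Oa, at 92, 88 and 77 bases from the start (14.8% of all windows hold it anywhere). H2-Aa had the X2 core at 74 bases as part of TGACGTCA, which reads the same on both strands, so that the 2 X2 matches overlap (20.8%). The H2-DMa windows lie at 34122582 to 34122881 and at 34125268 to 34125567, upstream of the listed gene start at 34135182 and not at it. The Y core was at 198 bases in the second, which is 1 of the 7 windows counted, and not in the first. A match of letters is a description of the sequence and not a measured binding site.

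**Figure D1:**
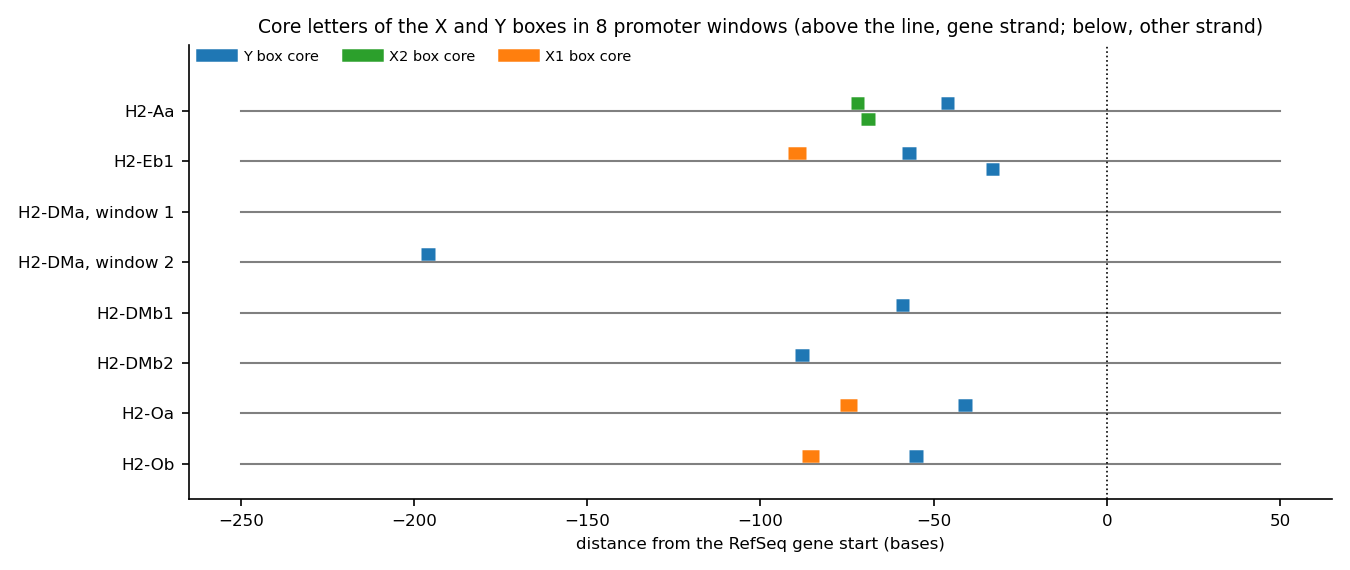
Positions of the X1, X2 and Y box cores (coloured blocks) in 8 RefSeq promoter windows of 7 class II genes, by distance in bases from the gene start (dotted line). Blocks above a line are on the gene's strand; the Y core stands between 43 and 90 bases before the start in 6 windows.

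Library totals were 10473535 to 27232379 counts in the Vav cohort and 7852483 to 20724168 in the Mx1 cohort. The mice were pooled before extraction, so p-values measure the spread between pools. The summed Jarid2 transcript did not fall with the label: it held 77.6 to 109 CPM (counts scaled to a common library total) in control and 80.2 to 144 in Jarid2-KO Vav HSC, and 91.8 to 126 and 107 to 129 CPM in MPP. In the Mx1 cohort it stood at 52.6 to 169 CPM over the double mutant libraries and at 51.5 to 69.1 over the Jak2V617F libraries. These sums run over all exons, so they do not check the deletion, and genotypes are given as labelled. Jarid2-KO MPP replicate 1 stood apart with 0.559% of its counts in mitochondrial genes, against 1.63% to 3.46% in the other 11 Vav libraries. In the Mx1 cohort, 20 heart muscle genes took 6.05% to 9.24% of counts in 6 libraries and 0.523% to 1.21% in the other 6, against at most 0.00369% in any Vav library. The 6 libraries over 4% were control MPP replicate 2, Jak2V617F HSC replicate 2, both Jak2V617F MPP libraries, and replicate 1 of each double mutant group. The 8 genes of the stem and progenitor list (Kit, Ly6a, Slamf1, Cd48, Flt3, Mecom, Hlf and Procr) do not by their sum check the gate. They include Cd48, which the sort selects against, and Flt3, which it does not use. They summed to 1941 to 2994 CPM in control and 1853 to 2115 CPM in Jarid2-KO Vav HSC. In Vav MPP they summed to 3217 to 3838 CPM in control and 2025 to 2697 CPM in Jarid2-KO, lower without overlap, and their part in the MPP results was not tested. They summed to 336 to 2118 CPM over the Mx1 libraries.

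The level of the genes in control cells was read per kilobase of exon, as RPKM (mean ± SD, n = 3). Cd74, the member on chromosome 18 (60803848 to 60812646 in mm10), led in control Vav HSC at 262 ± 16 RPKM, followed by H2-DMa at 130 ± 21.3, H2-Aa at 44.8 ± 5.15 and H2-DMb1 at 37.8 ± 1.46. H2-Ab1 (16.3 ± 4.18), H2-Oa (15 ± 1.51) and H2-Eb1 (14.8 ± 3.07) came next with overlapping libraries, then H2-Ob (8.44 ± 1.08), H2-DMb2 (2.90 ± 0.561) and, lowest, the regulator Ciita (0.818 ± 0.129). Apart from those 3, no library of a gene overlapped the gene ranked next to it. Control MPP kept Cd74 (326 ± 64.9) and H2-DMa (165 ± 20.9) on top, but H2-Ob moved up to 30.2 ± 3.63 RPKM and overlapped H2-Ab1 (25.1 ± 3.77). In Jarid2-KO HSC, H2-DMa (134 ± 29.2) ranked above Cd74 (110 ± 29.6), with overlapping libraries.

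The first comparison asked how loss of Jarid2 alters these transcripts in stem cells. The invariant chain gene Cd74 and the I-A alpha chain gene H2-Aa fell in Jarid2-KO HSC. H2-Ab1, H2-Eb1, H2-Oa and H2-Ob were lower without overlap and did not pass the test, and H2-DMa, H2-DMb1, H2-DMb2 and Ciita overlapped between genotypes. Lower transcript in a sorted bulk sample may mean less RNA per cell or fewer cells that make it, and the counts cannot tell these apart. Of the 10 genes, 2 passed the edgeR quasi-likelihood test at a Benjamini-Hochberg adjusted p under 0.05, both lower, where 0.569% of the 15818 genes tested passed in either direction, 0.316% as lower and 0.253% as higher. By groups that did not overlap, 6 of 10 were lower and none higher, where 10.7% of all genes were lower without overlap. The median log2 fold change over the 10 was -0.75, beside -0.03 over all genes tested.

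Cd74 stood at 358, 395 and 355 CPM in control HSC (replicates 1 to 3) and at 163, 191 and 109 CPM in Jarid2-KO HSC. Every knockout library was below every control library. Its log2 fold change was -1.32 (SE 0.22, edgeR adjusted p = 0.0193). H2-Aa, the I-A alpha chain, stood at 80.8, 76.3 and 94.8 CPM in control HSC and at 26.5, 42.4 and 33.5 CPM in Jarid2-KO HSC, again without overlap. It fell by a log2 of 1.36 (SE 0.22, edgeR adjusted p = 0.0193). Both calls were lost when certain libraries were left out: without control replicate 3 their edgeR adjusted p-values were 0.062 for Cd74 and 0.0747 for H2-Aa, without Jarid2-KO replicate 1 they were 0.0914 for both, and without Jarid2-KO replicate 3 they were 0.0756 for both. Without control replicate 2, Cd74 had an edgeR adjusted p of 0.0809.

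The beta chains pointed the same way without passing. H2-Ab1 stood at 21.4, 24.1 and 34.4 CPM in control HSC and at 13.5, 18.8 and 10.7 CPM in Jarid2-KO HSC (log2 -0.95, SE 0.33, edgeR adjusted p = 0.186). H2-Eb1 stood at 17.3, 14.0 and 21.2 CPM in control HSC and at 7.37, 9.07 and 3.67 CPM in Jarid2-KO HSC (log2 -1.43, SE 0.33, edgeR adjusted p = 0.0716). Neither pair of groups overlapped. DESeq2 and the fit of these groups alone put H2-Eb1 and H2-Ob past the threshold as well, for 4 genes in each, where they called 4.36% and 2.02% of all genes.

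The H2-O chains, which restrain peptide exchange, were lower without passing. H2-Ob stood at 27.9, 22.7 and 29.2 CPM in control HSC and at 9.12, 14.0 and 12.3 CPM in Jarid2-KO HSC (log2 -1.24, SE 0.26, edgeR adjusted p = 0.0529). H2-Oa stood at 21.9, 18.04 and 19.2 CPM in control HSC and at 12.5, 18.01 and 11.6 CPM in Jarid2-KO HSC (log2 -0.55, SE 0.26, edgeR adjusted p = 0.293). Of the 2 chains, H2-Ob had the wider gap between groups. Among the H2-M genes, H2-DMa stood at 254, 196 and 192 CPM in control HSC and at 236, 257 and 165 CPM in Jarid2-KO HSC (log2 -0.03, SE 0.20). H2-DMb1 stood at 53.6, 57.4 and 57.4 CPM in control HSC and at 71.1, 76.4 and 49.3 CPM in Jarid2-KO HSC (log2 0.16, SE 0.20). The groups overlapped for both genes, and the sign for H2-DMa turned under 4 alternatives. H2-DMb2, the less abundant H2-M beta chain, stood at 4.26, 6.05 and 4.55 CPM in control HSC and at 4.48, 4.01 and 3.11 CPM in Jarid2-KO HSC (log2 -0.43, SE 0.32). It overlapped too, as did the regulator Ciita. Ciita stood at 4.04, 3.78 and 5.07 CPM in control HSC and at 3.84, 2.97 and 3.50 CPM in Jarid2-KO HSC (log2 -0.39, SE 0.33, edgeR adjusted p = 0.561). Per kilobase, the ratio of H2-Aa to H2-DMa was 0.279 to 0.433 over control HSC and 0.0985 to 0.178 over Jarid2-KO HSC, with no overlap.

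**Figure D2:**
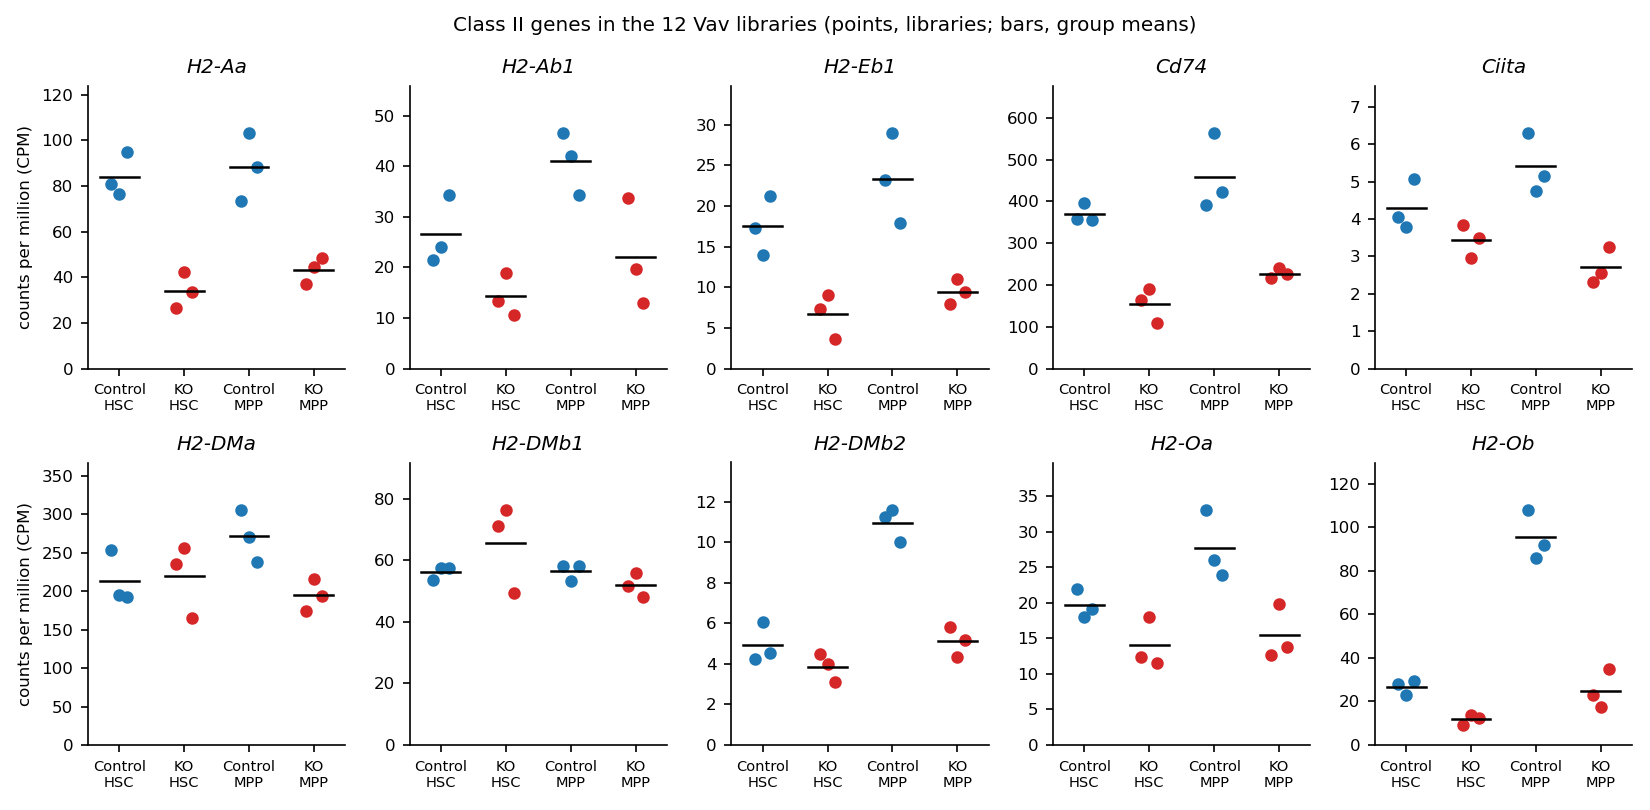
CPM (counts scaled to a common library total) of the 10 class II genes in the 12 Vav libraries; points are libraries, blue for control and red for Jarid2-KO, and black bars are means of 3. In HSC the red points of Cd74, H2-Aa, H2-Ab1, H2-Eb1 and H2-Ob lie below the blue ones, and those of H2-DMa and H2-DMb1 overlap them.

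The same comparison in MPP gave 3 genes past the test, all lower, H2-Ob, H2-Aa and Cd74, where 0.948% of the 15818 genes passed in either direction, 0.436% as lower and 0.512% as higher. By groups that did not overlap, 9 of 10 were lower and none higher, against 12.6% of all genes lower without overlap. The exception was H2-DMb1. The median log2 fold change over the 10 was -1.0, beside 0.02 over all genes tested.

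H2-Ob, the beta chain of H2-O, had the largest log2 fold change of the 10 genes in MPP. It stood at 108, 85.9 and 92.0 CPM in control MPP and at 22.7, 17.5 and 34.8 CPM in Jarid2-KO MPP. Its highest knockout library held less than its lowest control library. It fell by a log2 of 1.92 (SE 0.27, edgeR adjusted p = 0.00362), and it passed the test in each of the 6 fits that left out a library of these groups. In the fit of control and Jarid2-KO MPP alone, where 0 of the 10 genes passed, its adjusted p was 0.0699. Its partner H2-Oa stood at 33.1, 26.0 and 23.99 CPM in control MPP and at 12.7, 19.9 and 13.8 CPM in Jarid2-KO MPP (log2 -0.84, SE 0.26, edgeR adjusted p = 0.114).

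H2-Aa stood at 73.2, 103 and 88.1 CPM in control MPP and at 37.0, 44.4 and 48.4 CPM in Jarid2-KO MPP (log2 -1.03, SE 0.21, edgeR adjusted p = 0.0376). Cd74 stood at 392, 564 and 423 CPM in control MPP and at 217, 239 and 226 CPM in Jarid2-KO MPP (log2 -1.01, SE 0.22, edgeR adjusted p = 0.0447). Both genes were lower without overlap, and both calls were close to the threshold. Without a library of these groups, the edgeR adjusted p ran from 0.054 to 0.173 for H2-Aa and from 0.0613 to 0.196 for Cd74 in 5 of the 6 fits; only without Jarid2-KO MPP replicate 3 did both pass. Without Jarid2-KO MPP replicate 1, the library with few mitochondrial counts, the values were 0.054 for H2-Aa and 0.0613 for Cd74, H2-Ob kept its call at 0.0034, and H2-Ab1 passed at 0.0391 (all edgeR adjusted p).

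The other genes did not pass in MPP. H2-Eb1 stood at 23.2, 29.0 and 17.9 CPM in control MPP and at 7.96, 10.97 and 9.45 CPM in Jarid2-KO MPP (log2 -1.30, SE 0.33, edgeR adjusted p = 0.0766). H2-Ab1 stood at 46.6, 42.1 and 34.4 CPM in control MPP and at 33.8, 19.7 and 13.0 CPM in Jarid2-KO MPP (log2 -0.87, SE 0.33, edgeR adjusted p = 0.179). The gap of H2-Ab1 between its lowest control and highest knockout library was narrow. Ciita stood at 6.30, 4.76 and 5.16 CPM in control MPP and at 2.32, 2.56 and 3.25 CPM in Jarid2-KO MPP (log2 -1.0, SE 0.33, edgeR adjusted p = 0.137). H2-DMb2 stood at 11.2, 11.6 and 10.0 CPM in control MPP and at 5.83, 4.34 and 5.16 CPM in Jarid2-KO MPP (log2 -1.09, SE 0.32, edgeR adjusted p = 0.101). Both were lower without overlap. H2-DMa stood at 306, 270 and 238 CPM in control MPP and at 174, 216 and 194 CPM in Jarid2-KO MPP (log2 -0.48, SE 0.20, edgeR adjusted p = 0.215), while H2-DMb1 held 53.2 to 58.2 and 48.0 to 55.8 CPM and overlapped (log2 -0.13, SE 0.20). DESeq2 called 7 of the 10 genes lower in MPP, all but H2-Ab1, H2-DMa and H2-DMb1, where it called 7.01% of all genes in either direction.

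Whether the Jarid2-KO effect differed between MPP and HSC was tested as an interaction. None of the 10 genes passed with edgeR, DESeq2 or limma-voom, none had an unadjusted p under 0.05 in edgeR, and 0 of the 15818 genes was called. The widest difference was that of H2-Ob (log2 -0.69, SE 0.37), and Cd74 differed by 0.31 (SE 0.31). The cell types were then compared within a genotype. In controls, H2-Ob rose from 22.7 to 29.2 CPM in HSC to 85.9 to 108 CPM in MPP (log2 1.79, SE 0.27, edgeR adjusted p = 0.00337), and it was the 1 gene of the 10 past the test, where 1.17% of genes passed and 0.512% passed as higher. This comparison shares its control MPP libraries with the knockout comparison in MPP, so the fall of H2-Ob there is not independent of it. H2-DMb2 went from 4.26 to 6.05 CPM in HSC to 10.0 to 11.6 CPM in MPP (log2 1.07, SE 0.31, edgeR adjusted p = 0.16), and DESeq2 and limma-voom each called it as well. DESeq2 called 3.0% of all genes in that comparison. In Jarid2-KO cells, H2-Ob held 9.12 to 14.0 CPM in HSC and 17.5 to 34.8 CPM in MPP (log2 1.10, SE 0.26, edgeR adjusted p = 0.101). There 0 of the 10 passed with edgeR, where 0.525% of all genes passed (0.348% lower, 0.177% higher). An unadjusted edgeR p under 0.05 was reached by 2, H2-Ob and Cd74, at ranks 145 and 999 of the 15818 genes. DESeq2 called H2-Ob, where it called 2.55% of all genes, and limma-voom called none of the 10.

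Markers of the cell types that carry most class II were read in the same libraries. The B cell list (12 genes) summed to 112 to 143 CPM in control and 125 to 439 CPM in Jarid2-KO HSC, and to 207 to 314 and 262 to 482 CPM in MPP. The macrophage and monocyte list (10 genes) summed to 274 to 460 CPM in control and 454 to 801 CPM in Jarid2-KO HSC, and to 451 to 567 and 405 to 1047 CPM in MPP. In MPP, 7 of its 10 genes had a positive and 3 a negative log2 fold change, at a median of 0.20. The 1 gene past the test was Cd68, a lysosomal glycoprotein of macrophages, and it went against most of the list. It fell in MPP from 41.3 to 50.9 CPM to 17.7 to 18.3 CPM (log2 -1.36, SE 0.23, edgeR adjusted p = 0.0126). The dendritic cell list (10 genes) overlapped in HSC at 69.2 to 121 and 83.1 to 115 CPM. In MPP it summed to 464 to 624 CPM in control and 210 to 350 CPM in Jarid2-KO, most of it Flt3, a receptor that the stem and progenitor list also holds (405 to 580 and 133 to 276 CPM). The defining dendritic genes Itgax and Siglech stood at 0 to 1.94 and 0 to 3.01 CPM over the MPP libraries, and at 0 to 0.0996 and 0 to 0.147 CPM over HSC. The T cell list (7 genes) summed to 30.1 to 32.1 CPM in control and 23.2 to 35.6 CPM in Jarid2-KO HSC, and to 53.0 to 66.3 and 34.8 to 40.4 CPM in MPP, lower without overlap there. The stem and progenitor list was likewise lower in Jarid2-KO MPP, as given above. The part of these cells in the class II result was not tested.

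The other listed genes of antigen presentation did not pass the test. Of 19 listed regulators and processing genes, 17 were tested and 0 passed with edgeR in HSC or in MPP, at medians of 0.07 and 0.12 (unadjusted p under 0.05 for 2 and 3 genes). At the extremes in HSC were the costimulator Cd86 (log2 -0.81, SE 0.33) and the thiol reductase Ifi30 (0.83, SE 0.56). In MPP they were Cd86 (-1.04, SE 0.33) and the ubiquitin ligase March8 (0.97, SE 0.37). Of 14 class I presentation genes, 0 passed with edgeR in either cell type, at medians of 0.18 and 0.09 (unadjusted p under 0.05 for 1 and 3 genes). In each cell type 8 were positive and 6 negative, from -0.64 to 0.79 in HSC and from -0.55 to 0.67 in MPP. The class I transactivator Nlrc5 went against most of the list, at -0.64 (SE 0.20) in HSC and -0.52 (SE 0.20) in MPP. The other tested genes inside the chromosome 17 span were Brd2, Psmb9, Tap1, Psmb8, Tap2 and ENSMUSG00000092222. None of the 6 passed with edgeR in HSC or MPP, and their medians were 0.04 and -0.08; the class I peptide transporter Tap1 was at 0.11 (SE 0.24) and 0.26 (SE 0.24).

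By the root mean square difference of mean-centred log2 CPM over the 12 Vav libraries, the genes most like the mean profile of Cd74, H2-Aa, H2-Ab1 and H2-Eb1 were the interferon-inducible gene Ifi27 (0.212), Ctla2b (0.270), Ralgps2 (0.275), the lipid-presenting molecule gene Cd1d1 (0.310) and Cd68 (0.311), of 11032 genes ranked at a median of 0.761. In the 12 Mx1 libraries, which the ranking did not use, the same 5 genes stood at 0.837, 1.06, 0.940, 0.720 and 1.80, where the median of the genes was 1.15. A gene with no change at all would stand at 0.943 in the Mx1 libraries and at 0.662 in the Vav libraries. Ralgps2 was at about that value in the Mx1 libraries, and Ctla2b and Cd68 were above it.

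In the Mx1 cohort, the question was what Jak2V617F changes and what added loss of Jarid2 changes on top of it. Between Jak2V617F and control, 0 of the 10 genes passed in HSC or MPP with edgeR, DESeq2 or limma-voom, none had an unadjusted p under 0.05 in edgeR, and 0 of 19616 genes was called in either. Without overlap, 3 of 10 were lower in HSC (H2-DMa, H2-DMb1 and H2-DMb2) and 1 in MPP (H2-Eb1), where 13.3% and 8.47% of all genes were. The double mutant libraries held more class II transcript than the Jak2V617F libraries. By groups that did not overlap, 7 of 10 genes were higher in HSC and 9 of 10 in MPP, where 17.4% and 16.9% of all genes were higher without overlap. The median log2 fold change over the 10 was 1.33 in HSC and 1.77 in MPP, beside -0.01 and -0.04 over all genes. With 2 libraries a group and a biological coefficient of variation of 0.786, against 0.337 in the Vav cohort, no gene of the 19616 passed edgeR in either comparison. At an unadjusted p under 0.05 stood 2 of the 10 in HSC and 4 in MPP. By that edgeR p, the last of them ranked 441 (H2-Aa, HSC) and 485 (H2-DMa, MPP) among the 19616 genes. DESeq2 called 0 of the 10 in HSC and 2 in MPP, where it called 0.408% of all genes. Against control, 3 of 10 were higher and 1 lower without overlap in HSC (23.9% and 11.9% of all genes) and 6 were higher in MPP (14.1%).

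H2-Aa stood at 51.0 and 26.3 CPM in control HSC, 75.8 and 45.3 in Jak2V617F HSC, and 140 and 412 in double mutant HSC. In MPP it stood at 77.2 and 43.6 CPM in control, 36.02 and 50.7 in Jak2V617F, and 186 and 361 in the double mutant. All 4 double mutant libraries were above the other 8 Mx1 libraries. Its log2 fold change over Jak2V617F was 1.84 in HSC (SE 0.66, edgeR adjusted p = 0.692) and 2.57 in MPP (SE 0.68, edgeR adjusted p = 0.808). Over control it was 2.40 in HSC (SE 0.68, edgeR adjusted p = 0.255) and 1.95 in MPP (edgeR adjusted p = 0.754).

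H2-Eb1 stood at 3.79 and 18.3 CPM in control, 15.9 and 30.5 in Jak2V617F, and 62.8 and 161 in double mutant HSC. In MPP it stood at 39.6 and 35.5, 25.8 and 24.1, and 58.3 and 127 CPM in the same order. Here too the 4 double mutant libraries were above the other 8. Its log2 fold change over Jak2V617F was 1.99 in HSC (edgeR adjusted p = 0.643) and 1.81 in MPP, and over control HSC 3.01 (SE 0.72, edgeR adjusted p = 0.14). Cd74 stood at 448 and 250 CPM in control, 337 and 208 in Jak2V617F, and 591 and 1116 in double mutant HSC, and at 605 and 137, 109 and 166, and 809 and 1579 CPM in MPP. Control MPP replicate 1 was above double mutant HSC replicate 1, so the 4 double mutant libraries did not stand clear of the other 8. Its log2 fold change over Jak2V617F was 1.33 in HSC and 3.03 in MPP (SE 0.83, edgeR adjusted p = 0.939).

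The remaining genes are given by role. H2-Ab1 stood at 60.1 and 154 CPM in double mutant HSC and 62.5 and 128 in double mutant MPP, against 20.8 to 65.9 over the other 8 libraries. H2-DMa stood at 103 and 369 CPM and at 104 and 225 CPM, against 24.05 to 146, and H2-DMb1 at 30.8 and 112 and at 29.0 and 57.8, against 8.41 to 42.2. Each of these 3 overlapped the other libraries through its lower double mutant values. Ciita stood at 5.67 and 19.9 CPM in double mutant HSC and 8.53 and 16.9 in double mutant MPP, against 0.196 to 6.87 over the other 8, where 3 libraries held 2 to 4 counts. H2-DMb2 stood at 4.84 and 9.75 CPM in double mutant HSC and 5.50 and 11.7 in double mutant MPP, against 0.647 (6 counts) to 10.7 over the other 8. The H2-O genes overlapped Jak2V617F in HSC. H2-Ob stood at 6.62 and 26.4 CPM in double mutant and 41.1 and 8.12 in Jak2V617F HSC, and at 8.62 and 26.6 against 12.4 and 5.39 CPM in MPP. H2-Oa stood at 3.66 and 10.96 CPM in double mutant and 10.7 and 7.01 in Jak2V617F HSC, and at 5.31 and 15.9 against 4.36 and 1.86 CPM in MPP, where it did not overlap.

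**Figure D3:**
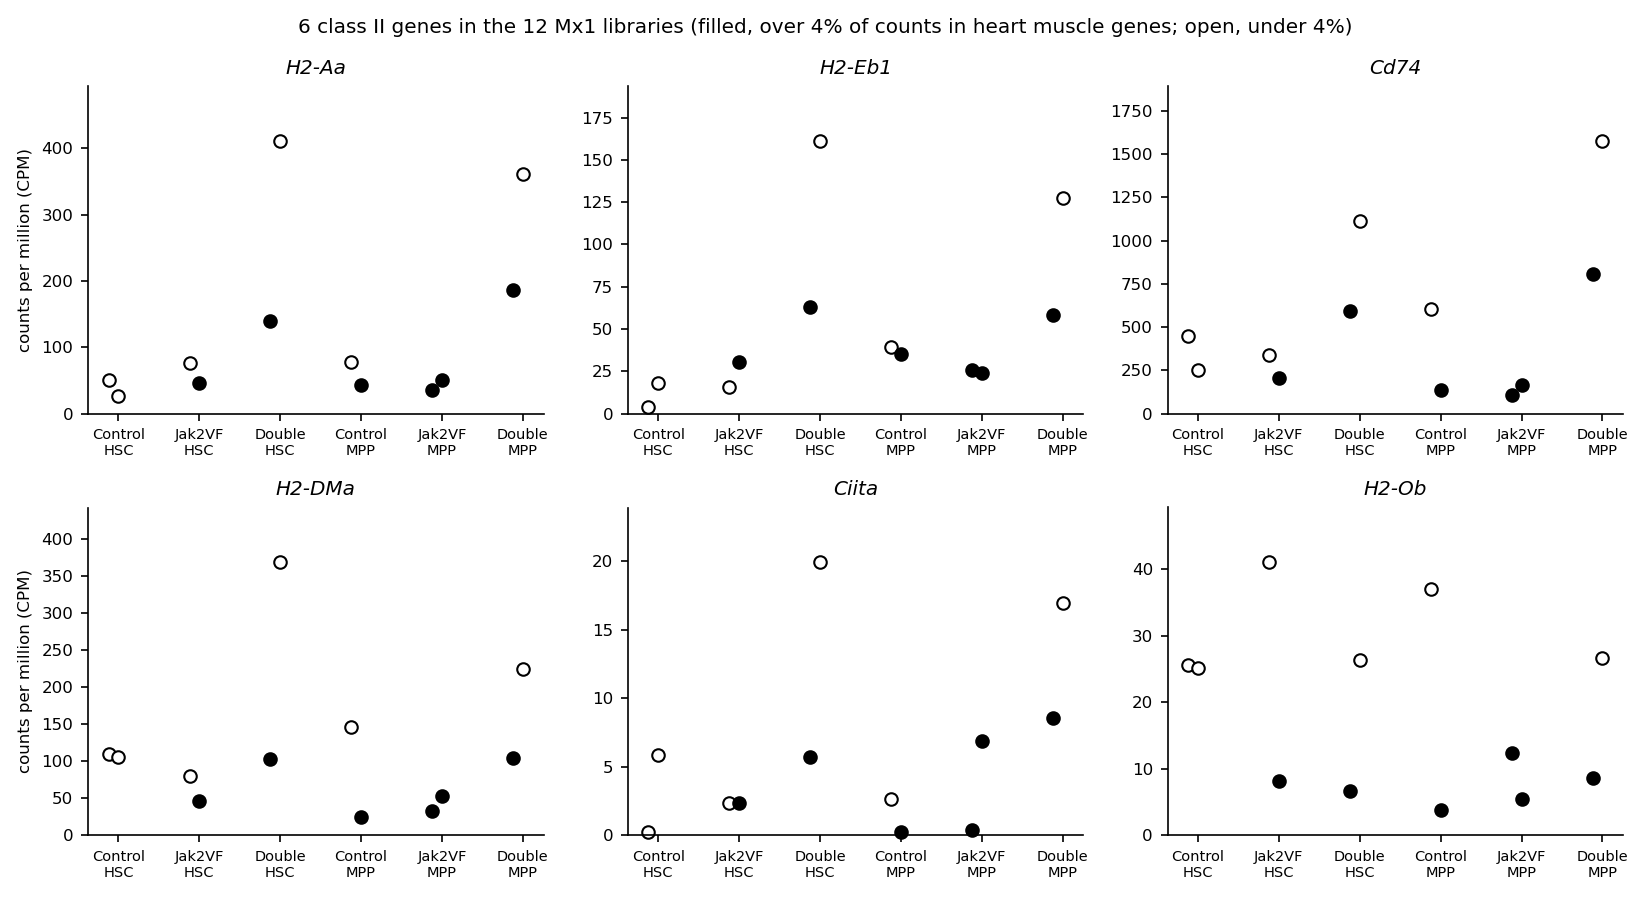
CPM (counts scaled to a common library total) of 6 class II genes in the 12 Mx1 libraries, 2 per group; filled points are the 6 libraries with over 4% of counts in heart muscle genes and open points the 6 under 4%. Jak2VF stands for Jak2V617F; for H2-Aa and H2-Eb1 all 4 double mutant points lie above the other 8.

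Heart muscle RNA was present unequally across these groups, so the values were also read within each set of 6 libraries. Among the 6 over 4%, the 2 double mutant libraries were above the other 4 for 7 of the 10 genes, where 10.6% of all genes were, with H2-Aa at 140 and 186 against 36.02 to 50.7 CPM. Among the 6 under 4%, they were above the other 4 for 7 of the 10 genes, where 19.7% of all genes were, with H2-Aa at 361 and 412 against 26.3 to 77.2 CPM. In the fit with a term for the heart sets, H2-Aa was higher in the double mutant than in Jak2V617F in HSC (log2 1.79, edgeR adjusted p = 0.00118) and in MPP (2.00, edgeR adjusted p = 0.0017). That fit called 2 of the 10 genes in each of the 4 comparisons of the double mutant, where 2.75% (HSC) and 0.591% (MPP) of all genes were called against Jak2V617F and 2.34% (HSC) and 1.58% (MPP) against control. The genes were H2-Aa in all 4, joined by H2-DMa against Jak2V617F and H2-Eb1 against control in HSC, and by Cd74 in both MPP comparisons. Other marker lists moved with the double mutant as well. The stem and progenitor list summed to 673 to 2118 CPM in the 4 double mutant and 336 to 817 CPM in the other 8 libraries. The macrophage and monocyte list was lower, at 289 to 562 against 1025 to 3923 CPM, and the B cell list was lower in double mutant HSC at 114 and 134 CPM against 492 to 2034 in control and 707 to 1455 in Jak2V617F HSC. The dendritic list overlapped, at 89.8 to 262 and 92.0 to 165 CPM. The part of the gate's purity in the class II values was not tested.

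**Figure D4:**
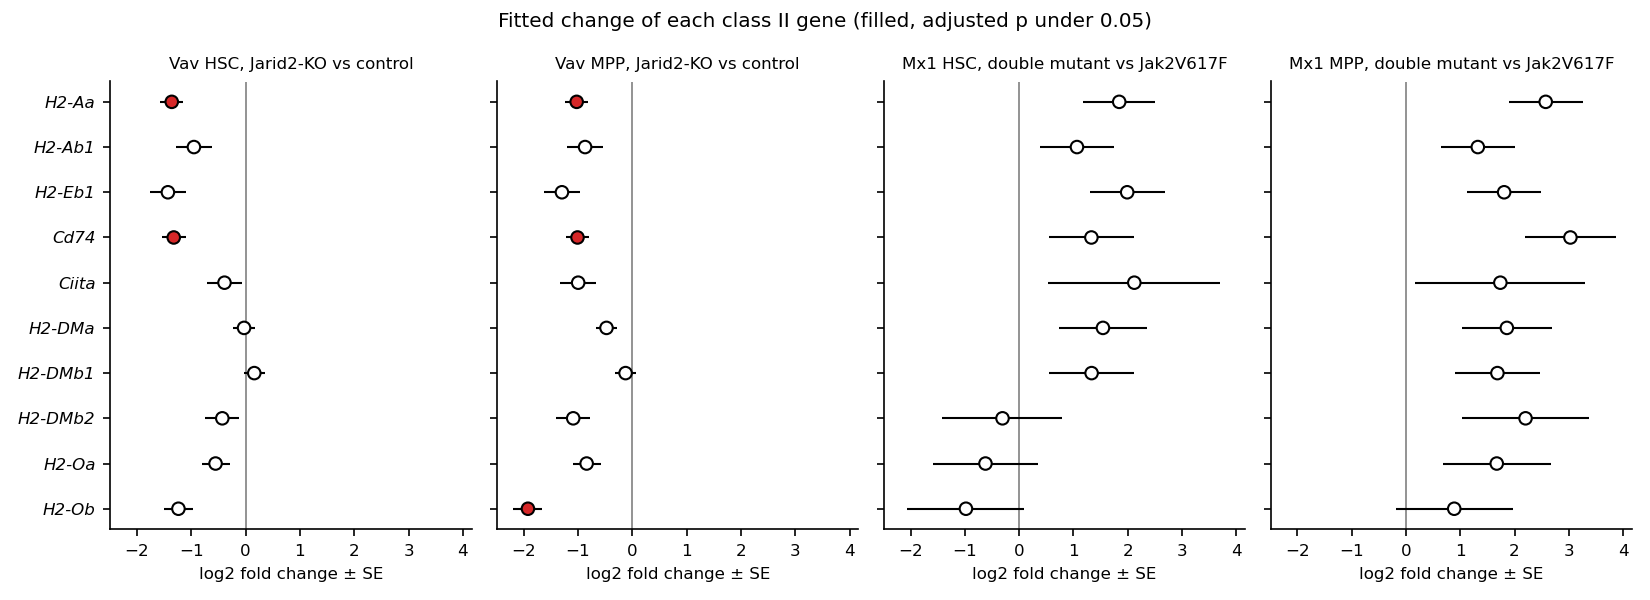
Log2 fold change with its SE (horizontal bars) of the 10 class II genes in 4 comparisons from the fits across all genes; filled points have an adjusted p under 0.05. The 3 genes filled in Vav MPP and the 2 in Vav HSC are lower in Jarid2-KO, and no point is filled in the Mx1 panels, where most lie above 0.

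Within the Mx1 cohort, MPP and HSC were also compared in each genotype and the effects were compared between cell types. In all 3 genotypes and both interactions 0 of the 10 genes passed with edgeR, DESeq2 or limma-voom. In each of these comparisons edgeR called 0 of the 19616 genes, so its 0 of 10 is not particular to class II. An unadjusted edgeR p under 0.05 was reached only in control, by H2-Eb1 and H2-Oa, at ranks 155 and 70 of the 19616 genes.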

How the data were processed

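The 24 RNA-seq libraries have 1 deposited table each, and the labels give their groups and replicate numbers. The submitters' processing notes name the build mm10 and, without roles, Partek 6.6, HTSeq 0.8.0, featureCounts 1.4.5, Subread and STAR 2.0.4. Libraries were made with a SMARTer Ultra Low kit from 3 to 5 ng of RNA, per the labels' protocols, which give the pool of mice once as 5 male and 5 female and once as 3 and 3. The authors deposited 3 values for each gene per the file headers: raw counts, CPM (each count over its library's total) and RPKM (that CPM per kilobase of exon). Where the labels give an Mx1 Jak2V617F group, the design text has Jarid2-KO without Jak2V617F; the labels were followed. The 8 H3K27me3 samples were not analysed here.

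Each cohort was fitted on its own, because 14573 genes have their exons listed differently in the 2 cohorts, although at the same exon length. The fit used edgeR 4.0.16 (R 4.3.3): filterByExpr (minimum count 10, total 15), TMM, robust quasi-likelihood F tests of counts, and Benjamini-Hochberg adjustment over all genes tested (15818 Vav, 19616 Mx1) at 0.05. The SE is the log2 fold change over the square root of F. There were 16 comparisons, 5 Vav and 11 Mx1. The rule was to name all 10 genes in each comparison and, of other lists, the genes past the test between genotypes and up to 4 at the extremes. Comparisons of cell types, and the lists, are given here by their counts and only some of these genes. The likeness ranking used genes with an average log2 CPM of at least 2. Genes, lists and tests were chosen with earlier results of these data known. Alternatives were DESeq2 1.42.0 (Wald test, and its size factors in edgeR), limma 3.58.1 voom with quality weights, no filter, a minimum of 20 counts, the replicate number or pool as a block, only the groups compared, leaving out each library, and a term for Mx1 libraries over 4% heart muscle counts. The fit was tested on simulated data. 1 of the gene lists is not reported here.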

Additional observations from a re-analysis of the deposited data

Results flagged for a closer look

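Of the 10 genes, 8 were lower without overlap in Vav Jarid2-KO and higher without overlap in the Mx1 double mutant than in Jak2V617F, in at least 1 cell type, where 5.06% of the 15228 genes tested in both cohorts were. In HSC the log2 fold changes, Vav then Mx1, were -1.32 and 1.33 for Cd74, -1.36 and 1.84 for H2-Aa, -0.95 and 1.06 for H2-Ab1, and -1.43 and 1.99 for H2-Eb1. In MPP they were -1.01 and 3.03 for Cd74, -1.03 and 2.57 for H2-Aa, -0.87 and 1.32 for H2-Ab1, -1.30 and 1.81 for H2-Eb1, -0.48 and 1.86 for H2-DMa, -1.09 and 2.20 for H2-DMb2, -1.0 and 1.74 for Ciita, and -0.84 and 1.67 for H2-Oa. The difference between the cohorts was not tested. They differ in Cre driver, pIpC, age, Jak2 genotype and group size (3 against 2). Heart muscle genes took 0.523% to 9.24% of counts in the Mx1 libraries and at most 0.00369% in the Vav libraries. The stem and progenitor list summed to 1853 to 3838 CPM over the Vav and 336 to 2118 CPM over the Mx1 libraries. For the macrophage and monocyte list the ranges were 274 to 1047 and 289 to 3923 CPM. The part of these differences was not tested. No Mx1 value here passed the edgeR test as fitted for the report.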

How the results depend on the processing

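Of 503 recomputed fold changes of named genes, 437 kept both direction and side of the threshold, 21 lost a call, 41 gained one and 4 reversed. The 4 were H2-DMa in Vav HSC, at 0.0178 without a filter and 0.04 with limma-voom, beside -0.03; leaving out a library it ran from -0.17 to 0.17, above 0 without control replicate 1 or Jarid2-KO replicate 3. In Vav HSC, Jarid2-KO against control, the 2 genes past the test became 4 without a filter, with DESeq2 and with only the groups compared, 5 with limma-voom, and 0 to 2 leaving out a library. In Vav MPP the 3 became 5 with limma-voom, 7 with DESeq2, 0 with only the groups compared, and 1 to 4 leaving out a library. Control MPP against HSC went from 1 to 2 with limma-voom, DESeq2 and the pool as a block, and stayed at 1 leaving out a library; the same contrast in Jarid2-KO went from 0 to 1 without a filter and with DESeq2, and 0 to 1 leaving out a library. In the Mx1 cohort, double mutant against Jak2V617F went from 0 to 2 with the heart term in both cell types, and in MPP to 1 without a filter and 2 with DESeq2. Against control, HSC went from 0 to 2 without a filter, with DESeq2, with the heart term and with only the groups compared, and MPP from 0 to 2 with the heart term. Over all genes, DESeq2 called 4.36% in Vav HSC and 7.01% in Vav MPP, and 3.0% and 2.55% between cell types in control and Jarid2-KO. In the Mx1 cohort it called 0.408% in MPP against Jak2V617F and 2.23% in HSC against control. Fits of only the groups compared called 2.02% in Vav HSC and 2.38% in Mx1 HSC against control. Such shares are not given for limma-voom, no filter, the replicate and pool blocks, leaving out a library, and the fit of only the Vav MPP groups. Counts of the 10 genes under these settings can therefore not be set against all genes. The cause of the changed counts was not tested, beyond the smaller number of libraries in fits that leave some out. With the replicate number as a block, 2 genes passed in Vav HSC and 2 in Vav MPP (H2-Ob and H2-Aa, with Cd74 at an adjusted p of 0.0564). Same-numbered samples had residual correlations of -0.00907 to 0.299 over 6 Vav pairs, and these numbers were not taken to pair the samples. With 2 libraries a group, both same-numbered Mx1 pairs of a genotype must share 1 value. It was 0.0448 in control, -0.0157 in Jak2V617F and 0.523 in the double mutant. Both replicate 1 libraries of the double mutant were over 4% heart muscle counts, so its value cannot tell pairing from heart muscle RNA. The Mx1 numbers were not taken as pairs either. Ciita and H2-DMb2 held under 10 counts in some Mx1 libraries, which limits their values. Where 1 library was left in a group, it was assumed to vary like the others.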

Other observations

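Of the 14 class I genes, 11 in HSC and 12 in MPP had a positive log2 fold change in the Mx1 double mutant over Jak2V617F. The other 3 and 2 were negative, the medians were 0.62 and 0.77, and 0 passed with edgeR. Named by the same rule were 2 other genes, each at the upper extreme of its list in these comparisons. Nlrc5, the class I transactivator, stood at 48.3 and 156 CPM in double mutant HSC and at 57.8 and 95.8 CPM in double mutant MPP, against 17.97 to 27.2 CPM over the other 8 libraries, with no overlap (log2 over Jak2V617F 1.96, SE 0.57, edgeR adjusted p = 0.37 in HSC and 1.69, SE 0.57, edgeR adjusted p = 1 in MPP). Gbp2, an interferon-induced GTPase, had log2 fold changes of 2.57 (SE 0.57, edgeR adjusted p = 0.211) and 2.50 (SE 0.57, edgeR adjusted p = 0.599). In Vav Jarid2-KO HSC Nlrc5 was at -0.64 without passing, where 8 of the 14 class I genes were positive and 6 negative.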
